A study of Rattus norvegicus with 3 samples.

Results

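The genes described here encode the heteromeric amino acid transporters of the rat renal proximal tubule, namely the heavy chains Slc3a1 and Slc3a2 and the light chains Slc7a5, Slc7a7, Slc7a8, Slc7a9 and Slc7a13, together with Slc7a1 of the same Slc7 family. The members were every probe set annotated to exactly 1 gene symbol where that symbol was 1 of these 8 genes. All 8 genes were found, on 10 of the 20826 probe sets that named 1 gene. They are 8 of 14217 named genes. Slc7a1 had 3 probe sets and each other gene had 1, and 0 probe sets named a member together with another gene. The samples were 3 preparations of proximal tubules from male Sprague-Dawley rats, 7 to 8 weeks old, each hybridised to 1 Affymetrix rat array (arrays 1, 2 and 3). All rats had heparin (250 units) before decapitation, and tubules were freed from the cortex with collagenase and banded in 42.5% Percoll. There was 1 group and no control tissue, so values are descriptions of these preparations and no test between conditions was possible. The labels do not tie a preparation to an animal, so the SD over arrays measures the spread between these samples, part of which may be technical.

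In a heteromeric transporter, a light chain of the Slc7 family carries the amino acid and a heavy chain of the Slc3 family, a glycoprotein joined to it by a disulfide bond, brings it to the membrane. In the proximal tubule, the Slc3a1 and Slc7a9 proteins sit in the brush border and take up cystine and cationic amino acids from the filtrate, and loss of either causes cystinuria. The Slc3a2 protein works at the basolateral side with the Slc7a7 and Slc7a8 proteins, which let amino acids leave the cell. The Slc7a13 protein carries aspartate, glutamate and cystine, pairs with Slc3a1 and is known from the late, straight segment of the tubule. The Slc7a5 protein, a carrier of large neutral amino acids, is typical of growing cells, and the Slc7a1 protein carries cationic amino acids without a heavy chain.

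The upstream sequences of 4 members are shown because these members fall on both sides of the array median described next. Slc3a1 and Slc7a9 encode the chains of the cystine transporter and kept a nearly constant signal ratio, while Slc7a1 and Slc7a5 lay near or below the median. Each sequence runs 5′ to 3′ from 250 bases before to 50 bases after the annotated start of the gene. Starts came from the RefSeq promoter table of build GRCr8, in which 7 of the 8 members matched. Slc7a13 had no entry there, so it was not searched for motifs. Capitals mark matches, on both strands, to CAAAGTCCA (a hepatocyte nuclear factor 4 site), TATAAA (the core promoter box), TGATGNAA (the core of an amino acid response element), GGGCGG (an Sp1 box) and GTTAAT (a hepatocyte nuclear factor 1 half-site). The Slc3a1 window is chr6:15394700-15394999 (minus strand), the Slc7a9 window chr1:97246632-97246931 (plus strand), the Slc7a1 window chr12:11664238-11664537 (plus strand) and the Slc7a5 window chr19:66872363-66872662 (minus strand).
Slc3a1: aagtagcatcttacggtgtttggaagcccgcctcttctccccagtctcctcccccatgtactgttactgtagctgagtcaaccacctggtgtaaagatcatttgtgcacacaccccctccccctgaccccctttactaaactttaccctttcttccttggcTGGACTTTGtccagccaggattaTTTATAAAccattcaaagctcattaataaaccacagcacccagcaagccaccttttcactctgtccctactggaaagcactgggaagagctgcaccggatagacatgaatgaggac
Slc7a9: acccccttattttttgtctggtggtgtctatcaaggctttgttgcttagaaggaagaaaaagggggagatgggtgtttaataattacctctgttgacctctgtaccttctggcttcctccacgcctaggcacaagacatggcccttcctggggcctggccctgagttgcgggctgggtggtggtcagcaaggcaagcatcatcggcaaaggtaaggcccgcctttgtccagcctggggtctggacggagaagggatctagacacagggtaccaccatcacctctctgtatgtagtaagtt
Slc7a1: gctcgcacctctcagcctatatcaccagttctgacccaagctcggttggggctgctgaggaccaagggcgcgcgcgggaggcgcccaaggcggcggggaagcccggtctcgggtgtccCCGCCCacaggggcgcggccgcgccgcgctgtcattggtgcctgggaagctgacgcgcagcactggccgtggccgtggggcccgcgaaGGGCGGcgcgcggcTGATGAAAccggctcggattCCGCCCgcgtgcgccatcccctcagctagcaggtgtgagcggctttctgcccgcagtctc
Slc7a5: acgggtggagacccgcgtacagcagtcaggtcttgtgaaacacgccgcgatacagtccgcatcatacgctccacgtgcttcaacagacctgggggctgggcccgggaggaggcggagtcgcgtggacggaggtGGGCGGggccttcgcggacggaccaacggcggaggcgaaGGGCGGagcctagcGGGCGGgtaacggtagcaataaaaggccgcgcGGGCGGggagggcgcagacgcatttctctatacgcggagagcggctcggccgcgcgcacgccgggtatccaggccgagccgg

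The CAAAGTCCA sequence was found as its reverse complement 89 bases before the Slc3a1 start and in 0.391% of all 33469 promoters of this length. It was found in none of the other 7 windows of members (Slc3a2 has 2 annotated starts). Slc3a1 also held TATAAA on both strands in overlapping positions 66 and 64 bases before the start, and 1 Slc3a2 window held it 247 bases before its start. TATAAA was found in 14.2% of all promoters. The TGATGNAA core was found in Slc7a1 alone among the 7 members searched, 30 bases before the start, against 3.98% of all promoters. GGGCGG was found 4 times in Slc7a5, 3 times in Slc7a1, once in Slc7a8 and once in each Slc3a2 window, against 33.1% of all promoters. GTTAAT, present in 7.45% of all promoters, was in none of the 8 windows, and no searched motif was in the Slc7a9 or Slc7a7 windows. The count of CG dinucleotides was 3 in Slc3a1, 5 in Slc7a9, 7 in Slc7a7, 19 in Slc7a8, 15 and 26 at the Slc3a2 starts, 36 in Slc7a1 and 42 in Slc7a5, against a median of 7 over all promoters. These matches describe letters in a window and not sites in use.

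Signals were probe-set intensities on a linear scale, taken as deposited. The array medians were 37.1, 37.4 and 34.9 on arrays 1, 2 and 3. Because probe sets differ in affinity, a signal is compared only with the same probe set on another array or with the array median. No detection calls were used, so a low signal does not show that a transcript was missing. All 8 proximal tubule markers checked (Lrp2, Cubn, Slc34a1, Slc5a2, Aqp1, Gatm, Miox and Hnf4a) were above the array median on all 3 arrays. Among markers of other cells, 7 of 8 for the thick ascending limb and 6 of 7 for endothelium were also above it on all 3 arrays, as were 4 of 10 for the collecting duct, 4 of 6 for the distal and connecting tubule, 4 of 9 for fibroblasts and smooth muscle, 3 of 10 for macrophages and lymphocytes, 1 of 4 for podocytes and 1 of 3 for red blood cells. No level of contamination was estimated from these signals, and in bulk RNA fewer cells of a type and less RNA per cell cannot be told apart.

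Both heavy chains and the light chains Slc7a7, Slc7a8, Slc7a9 and Slc7a13 exceeded the median signal of every array, while Slc7a1 and Slc7a5 did not. That is 6 of 8 members, where 61.0% of all named genes did so. The heavy chain gene of the brush border, Slc3a1, gave signals of 9645, 8105 and 8653 on arrays 1, 2 and 3 (8801 ± 781, SD, n = 3). Its array 1 signal was 1.19 times that of array 2. The heavy chain gene of the basolateral side, Slc3a2, gave 4549, 4062 and 4377 (4329 ± 247, SD, n = 3). Both heavy chain genes were lowest on array 2, and all 6 values lay far above the array medians.

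Slc7a9, the light chain gene of the cystine transporter, gave 4884, 4257 and 4690 (4610 ± 321, SD, n = 3). Slc7a7, the basolateral exporter of cationic amino acids whose loss causes lysinuric protein intolerance, gave 6147, 5725 and 5840 (5904 ± 218, SD, n = 3). The SD was 3.70% of the mean for Slc7a7, the lowest of the 10 probe sets, and 6.96% for Slc7a9. Slc7a8, the basolateral exchanger of neutral amino acids, gave 1133, 964 and 1271 (1122 ± 154, SD, n = 3), with array 3 at 1.32 times array 2. All 3 genes were lowest on array 2, and Slc7a8 spread more widely than Slc7a7 and Slc7a9.

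Slc7a13 gave 209, 73.6 and 638 on arrays 1, 2 and 3 (307 ± 295, SD, n = 3). Its signal on array 3 was 8.66 times that on array 2 and 3.06 times that on array 1. The SD was 96.1% of the mean, close to the mean itself. Slc7a13 was above the array median on every array, including array 2.

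Slc7a5 gave 17.5, 22.0 and 9.75 (16.4 ± 6.22, SD, n = 3), below the median of every array. The partner of the Slc7a5 protein, Slc3a2, was thus well above the median where Slc7a5 was not, although the probe sets cannot be compared in level.

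The 3 probe sets of Slc7a1 disagreed. The probe set of highest mean, 1368392_at, gave 20.7, 51.3 and 59.3 (43.8 ± 20.4, SD, n = 3) and was above the array median on 2 of 3 arrays. Probe set 1368391_at gave 32.4, 22.3 and 20.7, and probe set 1387167_at gave 5.27, 7.81 and 12.2, both below the median on every array. 1368392_at and 1387167_at were lowest on array 1, where 1368391_at was highest, so the probe sets give no common direction for Slc7a1 between arrays.

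**Figure D1:**
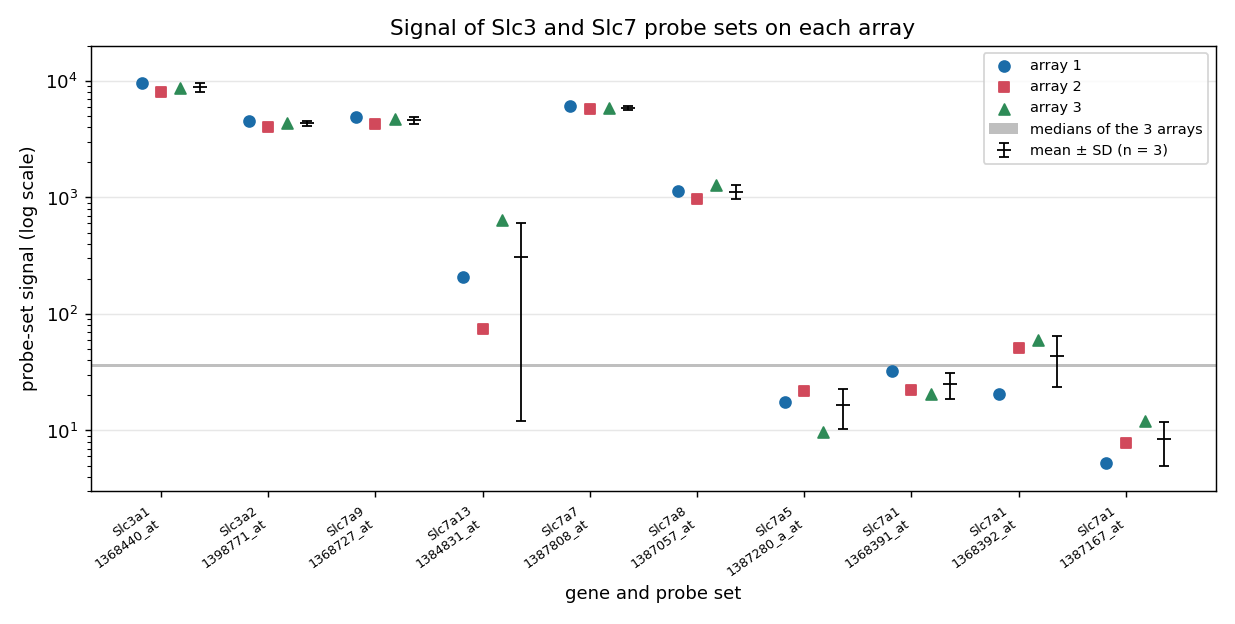
Signal of each of the 10 probe sets (log scale) on arrays 1 (circles), 2 (squares) and 3 (triangles), with the mean ± SD (n = 3) in black and the range of the 3 array medians in grey. Slc3a1, Slc3a2, Slc7a9, Slc7a7 and Slc7a8 form clusters above the grey band, of which that of Slc7a8 is the widest. The Slc7a13 points spread from 73.6 to 638, and Slc7a5 and the Slc7a1 probe sets lie around or below the band.

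To compare the preparations, each signal was written as log2(signal + 16), centred on its array's median, and expressed as the deviation from the probe set's own mean over the 3 arrays. The distance between the highest and lowest array, in log2 units, is called the range, and differences on this scale understate changes of low signals. The median range was 0.36 over the 8 members and 0.34 over all named genes. Slc7a13 had a range of 2.94 and Slc7a1 (1368392_at) of 1.10, so 2 of 8 members reached 1 log2 unit (2-fold), against 4.46% of all named genes. Of the 6 members above the median level of named genes, only Slc7a13 reached it, against 1.39% of the 7108 genes above that level. Slc7a13 had the fifth widest range among those genes, and its range exceeded that of 99.9% of them. The range of Slc7a1 rested on array 1 and on the choice of probe set: it was 0.23 without array 1 and 0.41 when its 3 probe sets were averaged. It was also below 1 log2 unit without array 3 (0.87) and with a constant of 64 in place of 16 (0.57).

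The remaining 6 members ranged from 0.11 to 0.49. The range was 0.11 for Slc7a7, 0.18 for Slc3a2, 0.21 for Slc7a9 and 0.26 for Slc3a1, all under the median of 0.28 for genes above the median level. It was 0.46 for Slc7a8 and 0.49 for Slc7a5. Slc7a13 aside, the 5 members above the median level deviated by 0.0038 to 0.12 on array 1. They deviated by -0.23 to -0.070 on array 2 and by 0.024 to 0.23 on array 3. Slc7a8 set the limits of -0.23 and 0.23, and its range exceeded that of 82.9% of genes above the median level. Array 2 was the lowest for 6 of 8 members, against 46.4% of all named genes and 56.7% of those above the median level. This shared dip depended on the scaling in part. After quantile normalization, Slc3a2 and Slc7a7 were lowest on array 1, while Slc3a1, Slc7a8, Slc7a9 and Slc7a13 were still lowest on array 2. For Slc3a1 the dip was then slight, at -0.024 on array 2 against -0.020 on array 3, and Slc7a9 was at -0.019 on array 2. The ranges shrank to 0.069 for Slc3a1, 0.037 for Slc7a9 and 0.038 for Slc3a2.

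**Figure D2:**
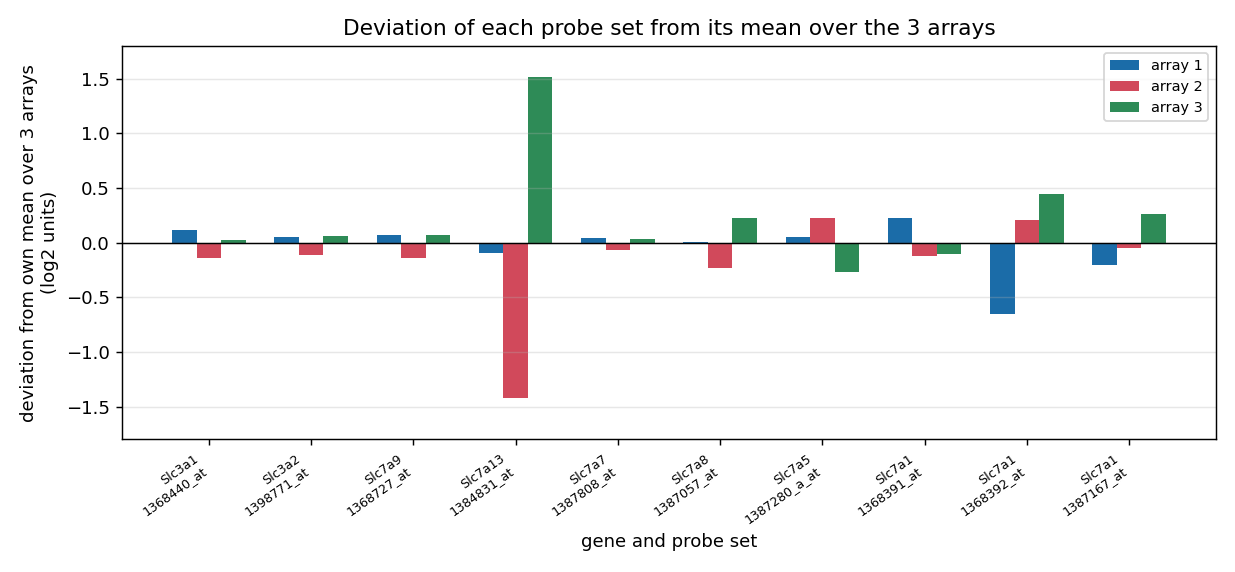
Deviation of each probe set from its own mean over the 3 arrays (log2 units), 1 bar per array. Slc7a13 reaches -1.42 on array 2 and 1.51 on array 3, the Slc7a1 probe set 1368392_at reaches -0.66 on array 1, and the heavy chains, Slc7a7 and Slc7a9 stay within 0.15 of 0.

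The ratio of a light chain signal to that of its heavy chain was followed across arrays, since it does not depend on the overall level of an array apart from the added constant. The Slc7a9 to Slc3a1 ratio deviated from its mean by -0.050, 0.0026 and 0.048 log2 units on arrays 1, 2 and 3, a range of 0.098 (1.07-fold). The Slc7a7 to Slc3a2 ratio deviated by -0.014, 0.046 and -0.032, a range of 0.079 (1.06-fold). For comparison, the ratio of a named gene above the median level to Slc3a1 had a median range of 0.26, and to Slc3a2 of 0.25. Ranges smaller than that of Slc7a9 to Slc3a1 were found for 11.1% of these genes, and smaller than that of Slc7a7 to Slc3a2 for 8.12%. These chains therefore kept nearly the same ratio in all 3 preparations, as did a minority of genes above the median level. That background includes genes of far lower signal. A steady ratio was not particular to partners. The 8 proximal tubule markers, also of high signal, had median deviations of 0.069, -0.10 and 0.045 on arrays 1, 2 and 3. Slc3a1 had 0.12, -0.14 and 0.024, and Slc7a9 had 0.067, -0.14 and 0.072. From array 1 to array 2, Slc7a9 changed by -0.20 log2 units and Slc3a2, which is not its partner, by -0.17. From array 1 to array 3 the changes were 0.0049 for Slc7a9 and 0.0076 for Slc3a2.

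The Slc7a8 to Slc3a2 ratio ranged over 0.29, close to the median of all such genes. The Slc7a5 to Slc3a2 ratio ranged over 0.67, with Slc7a5 at a signal where 1 array read 9.75. Slc7a13 departed furthest from its heavy chain: the Slc7a13 to Slc3a1 ratio deviated by -0.21, -1.28 and 1.49 on arrays 1, 2 and 3, a range of 2.77 (6.83-fold). The signals of Slc7a13 and Slc7a9, which share Slc3a1 as partner, thus changed unequally between preparations. The range of the Slc7a13 to Slc3a1 ratio was 1.08 without array 3 and 1.70 without array 2.

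**Figure D3:**
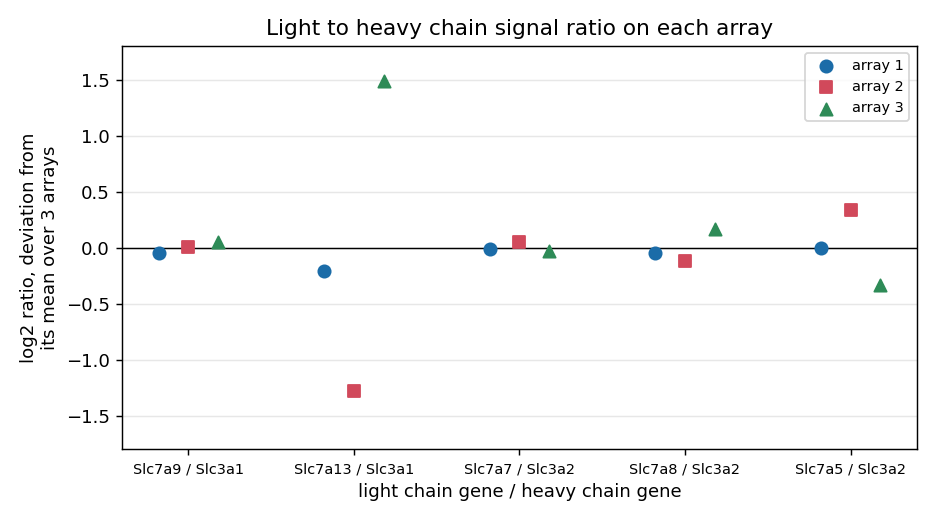
Ratio of each light chain signal to that of its heavy chain on the 3 arrays, as the deviation from the mean ratio in log2 units. The Slc7a9 to Slc3a1 and Slc7a7 to Slc3a2 points nearly coincide, with ranges of 0.098 and 0.079, and the Slc7a13 to Slc3a1 points extend from -1.28 to 1.49.

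Slc7a13 is known from the late segment, so genes of the late and early segments were examined on the same scale. The 14 measured late segment genes had median deviations of 0.13, -0.20 and -0.0033 on arrays 1, 2 and 3, and the 12 early segment genes 0.12, -0.12 and 0.031. Over all named genes the medians were 0.038, -0.057 and 0.019. In median deviation both segments were therefore lowest on array 2, and neither median was raised on array 3 as Slc7a13 was. Single late genes did have the array order of Slc7a13, namely Slc15a2 (-0.0019, -0.20 and 0.20), Slc6a18 and Cyp7b1. The other late genes did not, and of the early genes only Slc22a8 did. Whether segment content differed between preparations was not tested. After quantile normalization the late medians were 0.047, -0.12 and -0.032, and the early medians shrank to 0.028, -0.016 and 0.0011. Of the late genes, 9 of 14 were above the median on all 3 arrays, against 61.0% of named genes, and 0 of 14 reached a range of 1 log2 unit, against 4.46%; in a list of this size a count of 0 is near that background. Slc1a1, the epithelial glutamate carrier, gave 2611, 1859 and 2107, and Slc6a18, a neutral amino acid carrier, gave 769, 606 and 748. Slc5a1, which recovers glucose late in the tubule, gave 41.0, 43.1 and 34.9. Of the 5 late genes not above the median on all arrays, the organic anion carrier gene Slc22a7 gave 28.9, 34.5 and 20.7, and Agt, which encodes angiotensinogen, gave 8.48, 22.6 and 7.43, both highest on array 2. Cyp7b1, a steroid hydroxylase gene, gave 12.4, 4.24 and 22.1, Slc22a13 gave 12.2, 1.27 and 9.97, and Serpina1, a protease inhibitor gene, gave 21.2, 8.70 and 5.10. These low signals shared no order over the arrays. The first 4 early genes were all highest on array 1: Slc5a2, the main glucose carrier of the early tubule, gave 3786, 3155 and 3388, Slc5a12, a lactate carrier, gave 2489, 2236 and 2112, Slc2a2, the basolateral glucose carrier, gave 2948, 2424 and 2630, and Slc4a4, the bicarbonate exporter, gave 7831, 6828 and 7335.

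The 5 genes with the smallest root-mean-square difference from the Slc7a13 deviations over the 3 arrays, among 7102 other genes above the median level, were RT1-Ba (0.42 log2 units), Slc38a3 (0.49), Sema6d (0.52), Tff3 (0.54) and Ppic (0.58). RT1-Ba, an MHC class II chain, gave 889, 333 and 1376. Slc38a3, a sodium-coupled glutamine carrier of the basolateral membrane, gave 204, 37.3 and 266. Sema6d, a semaphorin gene, gave 117, 87.3 and 313, Tff3, a secreted trefoil peptide, gave 233, 155 and 482, and Ppic, a peptidyl-prolyl isomerase, gave 154, 69.0 and 225. Each was lowest on array 2 and highest on array 3, an order that the choice by likeness to Slc7a13 favours. The ranges of 1.57 to 2.47 were all narrower than that of Slc7a13. With 3 arrays such likeness is weak. Under each of 5 other settings 4 or 5 of the 5 genes recurred, but these settings used the same arrays and add no independent evidence. RT1-Ba, the closest gene, was not among the 5 when the probe sets of a gene were averaged.

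**Figure D4:**
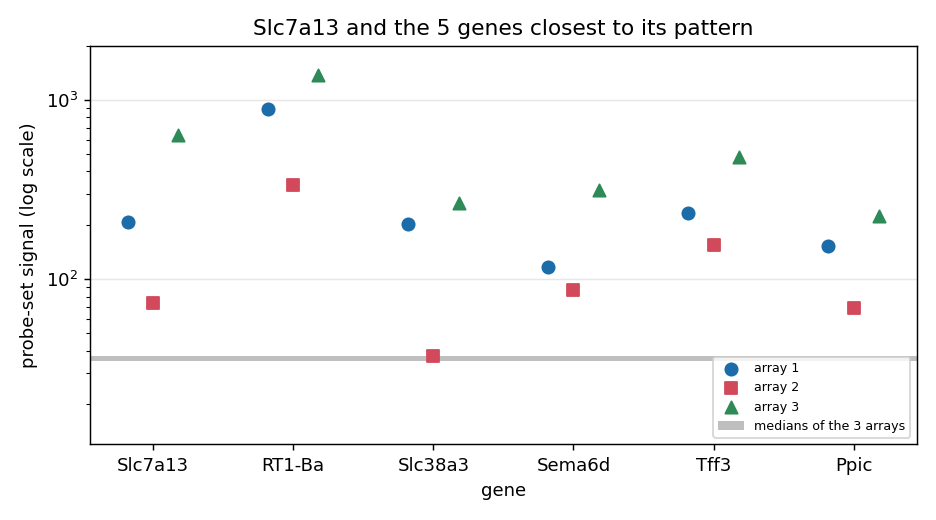
Signal (log scale) of Slc7a13 and of the 5 genes closest to its pattern on arrays 1 to 3, with the range of the array medians in grey. In every gene the square of array 2 is lowest and the triangle of array 3 is highest, and Slc38a3 on array 2 (37.3) lies at the array median.

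Markers of other cells also differed between the arrays. The 10 macrophage and lymphocyte markers had median deviations of -0.034, -0.11 and 0.23, with a summed signal of 5724, 3715 and 5702. The 6 distal and connecting tubule markers had -0.090, -0.20 and 0.28, with sums of 1151, 1028 and 1490. The 3 red blood cell markers had 0.11, -0.29 and 0.19, with sums of 185, 90.0 and 102. These 3 lists, like Slc7a13, were lowest on array 2 and highest on array 3 in median deviation, but not in every marker. Of the red blood cell markers only Alas2 had that order, at signals of 11.4, 4.57 and 11.8. Hbb (173, 83.2 and 74.4) was lowest on array 3 and Ahsp on array 1. In deviation, the macrophage and lymphocyte markers Ptprc, Cd74, Lyz2 and Csf1r had it and the rest did not. The distal and connecting tubule markers Slc12a3, Calb1, Slc8a1 and Klk1 had it, and Trpv5 and Pvalb did not. The 8 thick ascending limb markers had 0.11, -0.095 and 0.077 (sums 15974, 13538 and 14064) and the 4 podocyte markers -0.037, 0.18 and 0.087 (sums 150, 193 and 158), and neither list had that order. The 7 endothelial markers had -0.29, 0.019 and 0.39, with sums of 813, 1107 and 1324, the order of Slc7a1 probe set 1368392_at. The 10 collecting duct markers had -0.22, -0.12 and 0.28 (sums 1294, 1184 and 1401), and the 9 fibroblast and smooth muscle markers had -0.15, -0.017 and 0.19 (537, 565 and 677). In median deviation both of these lists had the same order as the endothelial markers and Slc7a1 probe set 1368392_at. Single markers of these lists that reached a range of 1 log2 unit were Pecam1 (1.45) and Plvap (1.10) of endothelium, Aqp2 (1.34) of the collecting duct, Cldn19 (1.27) of the thick ascending limb, Col3a1 (1.06) of fibroblasts, Cd68 (1.02) of macrophages and, just past that line, Hbb of red blood cells. No marker was listed at 0. The 3′ to 5′ signal ratio, a measure of RNA integrity, was 3.85, 3.28 and 3.66 for beta-actin and 1.52, 1.52 and 1.40 for GAPDH. The part of these in the ranges of Slc7a13 and Slc7a1 was not tested.

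**Figure D5:**
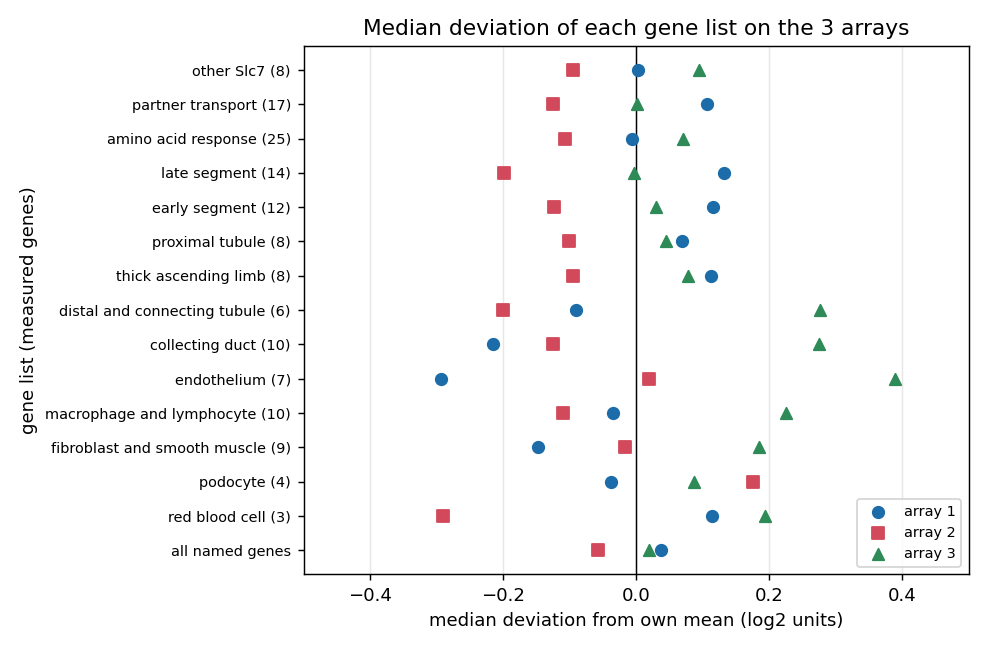
Median deviation (log2 units) of each gene list, with its number of measured genes, and of all named genes on the 3 arrays. Endothelial markers extend from -0.29 on array 1 to 0.39 on array 3, late segment genes from -0.20 on array 2 to 0.13 on array 1, and all named genes stay between -0.057 and 0.038.

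Most other genes of the Slc7 family gave signals below the array medians. Of 8 measured (Slc7a15 had no probe set here), 1 was above the median on all 3 arrays, against 61.0% of named genes. A range of 1 log2 unit was reached by 0, against 4.46%, and in a list of this size a count of 0 is near that background. Most of these signals lay near or below the added constant of 16, which narrows their ranges. The gene above the median was Slc7a12, whose protein resembles that of Slc7a13, at 58.0, 63.4 and 71.5 (64.3 ± 6.83, SD, n = 3). Slc7a12 was not low on array 2. Slc7a2, a cationic carrier, gave 9.39, 9.42 and 13.8. Slc7a6, which in other tissues does the work of Slc7a7, gave 19.3, 13.1 and 10.9. Slc7a11, the cystine-glutamate exchanger, gave 15.8, 13.1 and 15.4. Slc7a3, Slc7a4, Slc7a10 and Slc7a14 gave signals between 0.779 and 11.9.

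Of 17 measured genes that work beside these transporters in amino acid and peptide uptake, 13 were above the median on all 3 arrays and 1, Slc38a3, reached a range of 1 log2 unit, against 61.0% and 4.46% of all named genes. Slc6a6, the taurine carrier, gave 1205, 1279 and 1208. The genes not above the median on all arrays were Slc38a3, Slc1a4, Slc36a1 and Slc36a2. Slc1a4, a carrier of small neutral amino acids, gave 0.973 to 1.64. Slc36a1 and Slc36a2, proton-coupled carriers of small amino acids, gave 5.33 to 11.6 and 16.9 to 22.8.

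Slc7a1, Slc7a5, Slc3a2 and Slc7a11 are known targets of the amino acid response, in which the factor ATF4 raises transport and synthesis genes. Of 25 measured genes of this response, 19 were above the median on all 3 arrays, against 61.0% of named genes, and 0 reached a range of 1 log2 unit, against 4.46%. Their median deviations were -0.0068, -0.11 and 0.070, and after quantile normalization -0.071, -0.031 and 0.055, with array 1 lowest. Atf4 itself gave 1545, 1421 and 1386, Asns, which makes asparagine, gave 38.4, 49.0 and 48.1, and Ddit3, a stress-induced factor, gave 284, 195 and 147. Of the 6 not above the median on all arrays, Trib3 gave 8.82, 21.2 and 10.3, Gdf15 gave 19.6, 46.8 and 19.5 and Chac1 gave 42.0, 65.2 and 34.2, all highest on array 2. Slc6a9 gave 36, 15.5 and 32.1 and Nupr1 13.3, 12 and 18.6, both lowest on array 2, as was Slc7a11. These 6 genes thus had no common order, and neither that of Slc7a5 nor that of Slc7a1 held for all of them.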

How the data were processed

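RNA of 3 preparations was measured, 1 array each. The deposited values are linear signal intensities per probe set. Per the labels, biotin-labelled cRNA followed the standard Affymetrix procedure; the summarisation software and the scaling between arrays are not given in the sources used here. Gene symbols came from the platform annotation: 20826 probe sets named 1 gene, of which 20758 matched a RefSeq gene ID (0 symbols changed), 436 named several and 9780 none; 57 control probe sets were left out. Per gene, the probe set of highest mean signal was used. Values were taken as log2(signal + 16), centred on the array median. No test was made, as there was 1 group; code was tested on simulated data. The number of arrays limits the precision. Apart from cell markers, genes named were the members, other Slc7 genes, the first 4 measured genes of each list, list genes below the median or reaching a range of 1 log2 unit, and the 5 genes most like Slc7a13. Cell markers reaching 1 log2 unit, and cell markers and segment genes named for the array order of Slc7a13, were added after their values were seen. Members and lists were chosen with earlier results of these data known. The lists overlap: Slc1a1, Slc6a18, Slc15a2 and Ggt1 are in both the late segment and partner lists, Slc15a1 in the early segment and partner lists, Slc34a1, Slc5a2 and Gatm in the early segment and proximal tubule lists, and Slc38a2 and Slc7a11 in 2 lists each. Alternatives were other probe-set rules, pseudocounts of 1 and 64, no centring, quantile normalization, lines at the 25th and 75th percentiles and leaving out each array. The light to heavy chain ratios and their alternatives were chosen after seeing the data. Python 3.11.15, pandas 2.3.3 and numpy 2.4.6 were used.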

Additional observations from a re-analysis of the deposited data

How the results depend on the processing

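The number of members exceeding the median of every array (6) stayed at 6 under other probe-set rules, and was 8 with the line at the 25th percentile (76.0% of named genes), 5 with the line at the 75th (36.4%), where Slc7a13 left the count, and 6 to 7 without each array. The count of members reaching a range of 1 log2 unit (2) was 1 when the probe sets of a gene were averaged, 1 with a pseudocount of 64, 3 with a pseudocount of 1 (where 23.0% of named genes reached it) and 1 to 2 without each array. Slc7a13 reached 1 log2 unit under every alternative, with ranges from 1.33 (without array 3) to 3.20 (pseudocount of 1). Quantile normalization moved the median deviations of the late and early segment lists and changed the lowest array of the amino acid response list, as given above. No alternative scaling moved the median of all named genes on an array by 0.1 log2 units. Leaving out 1 array narrowed the range of the Slc7a7 to Slc3a2 ratio to 0.018 (array 2), of Slc7a9 to Slc3a1 to 0.045 (array 1) and of Slc7a8 to Slc3a2 to 0.068 (array 3). The Slc7a5 to Slc3a2 ratio ranged over 0.33 to 1.21 over the alternatives run. Signals of Slc7a5 and of the Slc7a1 probe sets were near the array median or below it, where a few signal units change a ratio. Their ranges moved with the pseudocount, the array left out and, for Slc7a1, the probe set. The Slc7a5 range (0.49) just reached 1 log2 unit with a pseudocount of 1 and was 0.19 with 64 and 0.17 without array 3.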
